A study of Saccharomyces cerevisiae with 18 samples.

Results

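Saccharomyces cerevisiae carries a small family of genes whose products make and rearrange disulfide bonds in the endoplasmic reticulum (ER), and 7 of them are described here: the protein disulfide isomerase genes PDI1 (YCL043C), EUG1 (YDR518W), MPD1 (YOR288C), MPD2 (YOL088C) and EPS1 (YIL005W) and the ER sulfhydryl oxidase genes ERO1 (YML130C) and ERV2 (YPR037C). They were chosen by gene name, each was read by a single probe set, and they are 7 of the 5449 genes tested on Affymetrix Yeast Genome 2.0 arrays. Total RNA came from 18 bioreactor cultures in mid-exponential batch growth, 3 for each of 6 strains. All strains were made from the uracil auxotroph CEN.PK 113-5D, a MAT a strain, and all carried a p426 plasmid with URA3 as the marker. In wild type the plasmid was the empty p426-GPD vector (WN), p426-YapIns for secretion of insulin precursor (WI) or p426-Yap-Amy for secretion of α-amylase (WA). The strains dN, dI and dA carried the corresponding plasmids in a hac1::kanMX deletion, so the controls of the deletion comparisons also carry a plasmid and differ in HAC1 alone by label. The methods describe a single deletion strain, the same constitutive promoter and secretion leader for both proteins, and no strain in which HAC1 was put back.

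Secreted proteins fold in the ER, where cysteines are joined into disulfide bonds. Pdi1 accepts electrons from the thiols of the folding chain and can also break and reform a wrongly placed bond, and Ero1 takes the electrons from Pdi1 and hands them through its flavin cofactor to oxygen, which yields hydrogen peroxide. When unfolded protein builds up, the kinase and nuclease Ire1 splices HAC1 mRNA, and the transcription factor Hac1 raises the genes of the unfolded protein response, among which are chaperones, isomerases and ERO1. The comparison of the deletion with wild type asks how the mRNA of each gene differed without HAC1, and the comparison of the plasmids asks whether the load of a secreted protein moved it.

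Signals are log2 values as the authors deposited them, so a difference of 1.0 is a doubling. The HAC1 signal lay between 10.54 and 10.96 in the 9 wild-type arrays and between 1.08 and 1.75 in the 9 deletion arrays, under the background of the array. That background, the level below which 95% of the probe sets without a tested gene fell, was 4.38 to 4.63, and every member lay above it on every array by at least 1.59 (EUG1) and up to at least 6.41 (PDI1). One array stood apart: the SD of the deviations of all genes from their strain mean was 0.361 in dN replicate 3 and 0.0768 to 0.25 in the other 17 arrays. The array called dN replicate 1 has no number in its title, and for WN replicate 1 the cells were, by label, lysed in another way than for the other arrays. All 5 MAT a marker genes were above background in the strain means, and among the MAT alpha markers MF(ALPHA)2 was at background throughout, while SAG1 (strain means of 5.61 to 5.76) was above it on all arrays. STE3 had means of 5.60 to 5.96 in wild type and 4.30 to 4.97 in the deletion, with 4 arrays at background, and MF(ALPHA)1, the gene of the α-factor precursor, rose by 2.56 in WA over WN. The means of MF(ALPHA)1 were 5.16, 6.01 and 7.73 in WN, WI and WA, and 4.18, 5.80 and 5.42 in dN, dI and dA, with 2 arrays at background. STE3, and MFA1 and BAR1 of the MAT a markers, fell in all 3 deletion comparisons, and the part of these shifts in the results below was not tested.

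Of the 7 genes, 5 had signals in the 9 wild-type arrays that all exceeded those of the 9 deletion arrays: PDI1, EUG1, MPD1, MPD2 and ERO1. The share of all genes separated in this way was not counted. The fall was largest for MPD1, ERO1 and EUG1, between 2.7-fold and 5.97-fold, and smaller for PDI1 and MPD2, between 1.53-fold and 1.95-fold. ERV2 fell by at most 1.27-fold, and EPS1 did not pass the test in any of the 3 backgrounds. Calls rest on limma, with all 18 arrays in a single fit and a threshold of 0.05 on the p-value adjusted by the Benjamini-Hochberg method. In bulk RNA, fewer cells that express a gene and less of its mRNA per cell cannot be told apart.

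**Figure D1:**
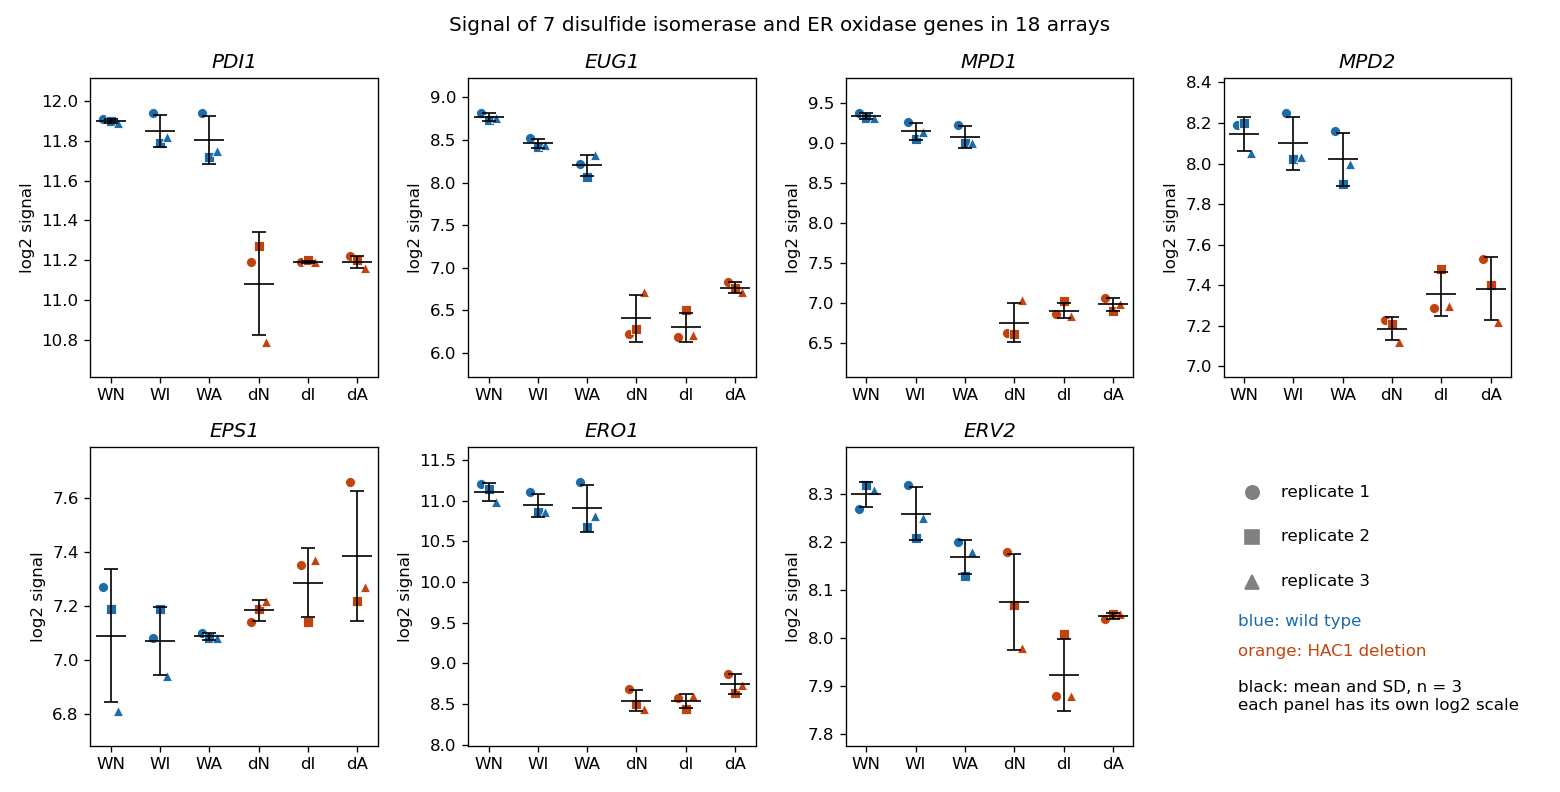
Log2 signal of each of the 7 genes (one panel a gene, each with its own axis) in the 3 arrays of each strain, with the mean and SD in black, wild type in blue and the HAC1 deletion in orange. The wild-type and deletion arrays do not overlap for PDI1, EUG1, MPD1, MPD2 and ERO1, and they overlap for EPS1 and ERV2.

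PDI1, the essential isomerase, gave 11.91, 11.90 and 11.89 in WN, 11.94, 11.79 and 11.82 in WI, and 11.94, 11.72 and 11.75 in WA. In the deletion it gave 11.19, 11.27 and 10.79 in dN, 11.19, 11.20 and 11.19 in dI, and 11.22, 11.20 and 11.16 in dA. The lowest value of PDI1 was that of dN replicate 3, and the other 8 deletion arrays kept within 11.16 to 11.27. PDI1 fell by 0.82 (SE 0.10) in dN against WN, by 0.65 in dI against WI and by 0.61 in dA against WA, with limma adjusted p of 1.75e-05, 0.000169 and 0.000314.

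EUG1 encodes a non-essential homologue of Pdi1 whose active sites each lack a cysteine of the usual pair. It gave 8.82, 8.73 and 8.76 in WN, 8.52, 8.42 and 8.44 in WI, and 8.22, 8.07 and 8.32 in WA. In the deletion the values were 6.22, 6.28 and 6.72 in dN, 6.19, 6.50 and 6.21 in dI, and 6.83, 6.76 and 6.71 in dA. The arrays of the 3 wild-type strains did not overlap, with WN highest and WA lowest, whereas among the deletion strains dA lay highest on average. Of all genes, 16.4% did not overlap in WI against WN and 16.4% in WA against WI. EUG1 fell by 2.37 (SE 0.12) in dN, by 2.16 in dI and by 1.43 in dA, a 5.16-fold, 4.48-fold and 2.7-fold fall, each at a limma adjusted p of 3.03e-07 or lower.

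MPD1, whose product can stand in for Pdi1 when overproduced, gave 9.38, 9.32 and 9.31 in WN, 9.26, 9.05 and 9.14 in WI, and 9.23, 9.0 and 9.0 in WA. The deletion arrays read 6.62, 6.61 and 7.04 in dN, 6.86, 7.02 and 6.84 in dI, and 7.06, 6.90 and 6.99 in dA. The lowest wild-type array of MPD1 stood at 9.0 and its highest deletion array at 7.06, and dN replicate 3 was again the one that left its strain, here upwards. MPD1 fell by 2.58 (SE 0.11) in dN, by 2.24 in dI and by 2.09 in dA, or 5.97-fold, 4.73-fold and 4.26-fold, with limma adjusted p of 1.68e-10, 8.67e-10 and 2.73e-09.

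MPD2, a related isomerase gene, fell less than MPD1. Its signals were 8.19, 8.20 and 8.05 in WN, 8.25, 8.02 and 8.03 in WI, and 8.16, 7.90 and 8.0 in WA, against 7.23, 7.21 and 7.12 in dN, 7.29, 7.48 and 7.30 in dI, and 7.53, 7.40 and 7.22 in dA. MPD2 fell by 0.96 (SE 0.09) in dN, by 0.74 in dI and by 0.64 in dA, with limma adjusted p of 2.22e-06, 3.48e-05 and 0.000156, a 1.95-fold, 1.67-fold and 1.56-fold fall beside the 1.76-fold, 1.57-fold and 1.53-fold fall of PDI1.

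EPS1 encodes a membrane-bound isomerase family member that takes part in quality control at the ER. It gave 7.27, 7.19 and 6.81 in WN, 7.08, 7.19 and 6.94 in WI, and 7.10, 7.08 and 7.08 in WA, and 7.14, 7.19 and 7.22 in dN, 7.35, 7.14 and 7.37 in dI, and 7.66, 7.22 and 7.27 in dA. Its arrays overlapped between wild type and deletion, and it was the one member whose mean was higher in the deletion in all 3 backgrounds. The differences were 0.09 (95% interval -0.17 to 0.36) in dN, 0.21 in dI and 0.30 (0.04 to 0.56) in dA, with limma adjusted p of 0.615, 0.258 and 0.0936. Averaged over the 3 backgrounds, a contrast added after the values had been seen, EPS1 was higher by 0.20 (SE 0.07, limma adjusted p = 0.0311), a contrast in which 43.1% of all genes were called and 23.7% were called higher, and the adjusted p ranged from 0.0188 to 0.0648 over the alternative settings. That call was lost without WN replicate 3, WI replicate 3, dI replicate 1, dI replicate 3 or dA replicate 1 (limma adjusted p of 0.0574 to 0.0648).

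ERO1, the essential oxidase, gave 11.20, 11.14 and 10.98 in WN, 11.10, 10.86 and 10.86 in WI, and 11.23, 10.68 and 10.81 in WA. Its deletion arrays read 8.69, 8.50 and 8.44 in dN, 8.57, 8.44 and 8.60 in dI, and 8.87, 8.63 and 8.73 in dA. The widest spread of ERO1 within a strain was in WA, where replicate 1 lay above the other two, and no deletion array came near the lowest wild-type array. ERO1 fell, with a change of -2.56 (SE 0.12) in dN, -2.40 in dI and -2.16 in dA, or 5.9-fold, 5.29-fold and 4.48-fold, with limma adjusted p of 6.39e-10, 1.71e-09 and 1.09e-08.

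ERV2, a flavin-linked oxidase of the ER that can replace Ero1 when overproduced, fell less than ERO1. It gave 8.27, 8.32 and 8.31 in WN, 8.32, 8.21 and 8.25 in WI, and 8.20, 8.13 and 8.18 in WA, and 8.18, 8.07 and 7.98 in dN, 7.88, 8.01 and 7.88 in dI, and 8.04, 8.05 and 8.05 in dA. All 18 arrays of ERV2 lay between 7.88 and 8.32, and dN replicate 1 reached the level of WA. ERV2 fell by 0.34 in dI against WI (limma adjusted p = 0.000747) and by 0.22 (SE 0.06) in dN against WN (limma adjusted p = 0.0152). The dN call was lost without dN replicate 3 (limma adjusted p = 0.0512), without WN replicate 2 (0.0565) and with only the strains compared in the fit (0.197), and in dA the difference of -0.12 did not pass (0.159).

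In total 6 of the 7 genes fell in dN against WN, where 21.5% of all genes tested were called and 12% were called lower. In dI against WI 6 fell, beside 20.2% of all genes called and 10.8% called lower, and in dA against WA 5 fell, beside 23.2% and 13.6%. The median change of the 7 genes was -0.96, -0.74 and -0.64, against 0.03, 0.04 and 0.01 over all genes. The 3 arrays of the deletion strain did not overlap those of its wild type for 6, 6 and 7 of the genes, which held for 30.8%, 46% and 45.7% of all genes.

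**Figure D2:**
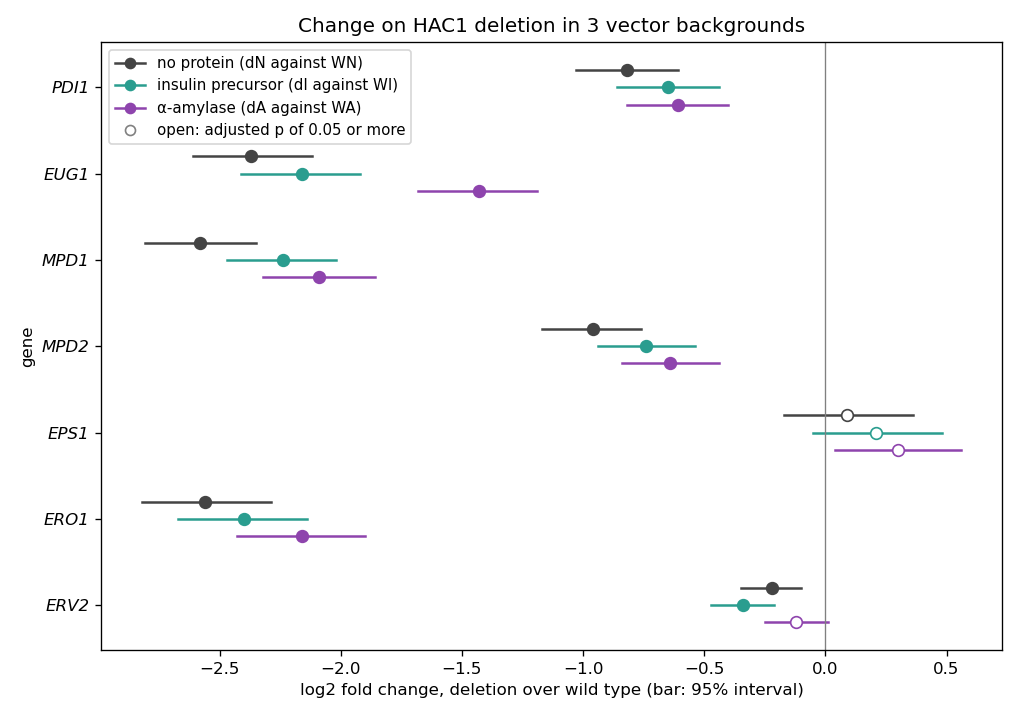
Log2 fold change of each gene on HAC1 deletion (horizontal axis, with its 95% interval from limma) with the empty vector, insulin precursor and α-amylase, filled where the adjusted p was under 0.05. MPD1, ERO1 and EUG1 lie farthest to the left, down to -2.58, EPS1 lies to the right of 0 with open points, and EUG1 with α-amylase, at -1.43, stands off its other 2 points.

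The signals of the members did not fall by equal amounts. This was taken within each array as the difference between a pair of log2 signals, and only its change between strains is read. How the signal of each probe set follows the amount of mRNA was not tested. KAR2, the gene of the major ER chaperone of the Hsp70 family, minus PDI1 was 0.24, 0.25 and 0.21 in WN and -0.62, -0.79 and -0.25 in dN. The signal of KAR2 thus fell further than that of PDI1, by 0.79 in dN, 0.85 in dI and 0.61 in dA (SE 0.11), with no overlap between the arrays of a deletion strain and its wild type. The signal of ERO1 in turn fell further than that of KAR2 by 0.95, 0.90 and 0.95 (SE 0.10) and further than that of PDI1 by 1.74, 1.75 and 1.55 (SE 0.11), again without overlap. Each of these 9 two-sided exact permutation tests gave p = 0.1, the smallest that 3 arrays against 3 allow, before and after Benjamini-Hochberg adjustment, so this test cannot reach 0.05 for a single difference.

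A further 2 pairs were chosen after the values had been seen and are given without a test. Among the isomerases, MPD1 minus PDI1 was -2.54, -2.58 and -2.58 in WN and -4.56, -4.66 and -3.75 in dN, and the change was -1.76 in dN, -1.59 in dI and -1.48 in dA (SE 0.17). Between the oxidases, ERO1 minus ERV2 was 2.93, 2.81 and 2.67 in WN and 0.52, 0.44 and 0.45 in dN, and the change was -2.34, -2.06 and -2.04 (SE 0.12). The third array of dN lay apart in the pair of isomerases and not in the pair of oxidases.

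**Figure D3:**
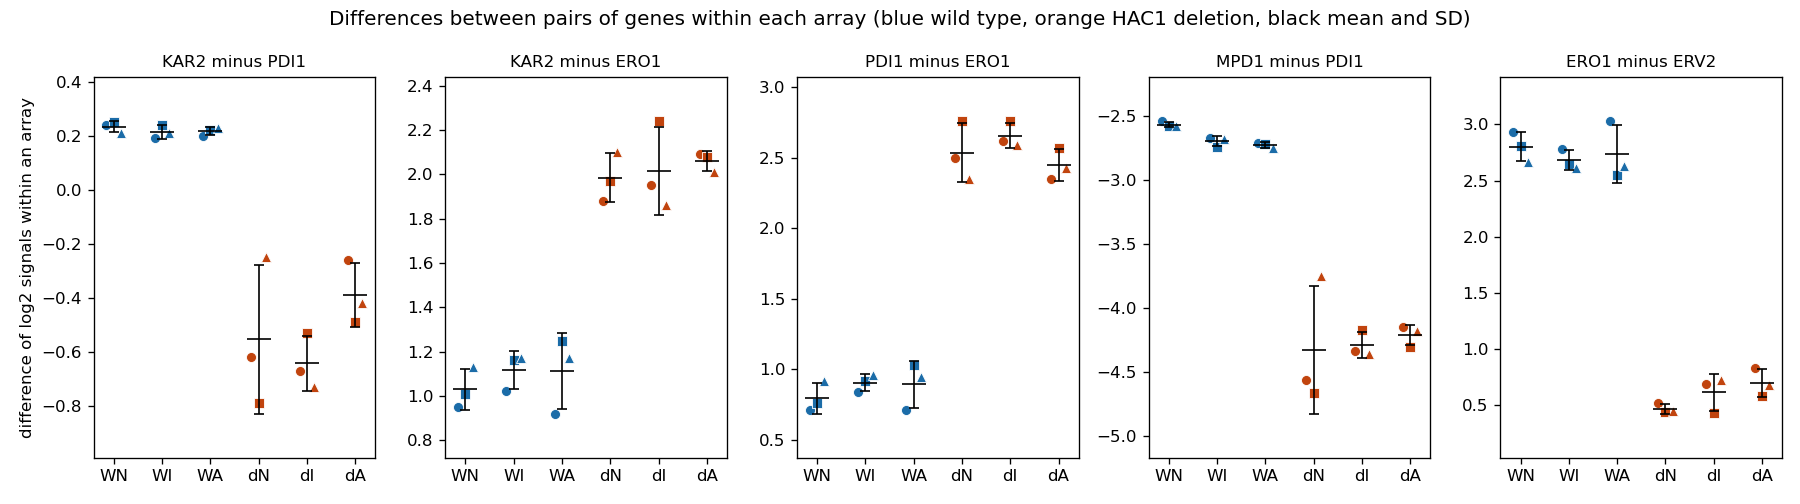
Difference between the log2 signals of a pair of genes within each array (vertical axis, one panel a pair, each with its own axis) in the 6 strains, with the mean and SD in black, wild type in blue and deletion in orange. In every panel the 9 wild-type arrays lie apart from the 9 deletion arrays, and the largest shift is that of ERO1 minus ERV2.

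For PDI1, EUG1, MPD1, MPD2 and ERO1, every difference between plasmids was smaller than every difference on deletion. This was not so for EPS1 and ERV2. In wild type, insulin precursor changed 0 of the 7 by the limma test at an adjusted p under 0.05, in a comparison where 0.294% of all genes were called, and 1 of them, EUG1, had an unadjusted p under 0.05. All 7 means were lower in WI than in WN, by 0.31 for EUG1 (limma adjusted p = 0.69) and by less for the others. With α-amylase, 1 of the 7 was called, EUG1, beside 4.79% of all genes called and 1.54% called lower. EUG1 fell by 0.57 (SE 0.12, limma adjusted p = 0.00994), or 1.48-fold, in WA against WN, and the call was lost without WN replicate 1 (0.0544) and without WA replicate 2 (0.0615). The other 6 means were also at or below those of WN, with MPD1 at -0.26 (limma adjusted p = 0.207), ERO1 at -0.20 (0.451) and ERV2 at -0.13 (0.261). An unadjusted p under 0.05 was found for 3 of the 7 in WA against WN: EUG1, MPD1 and ERV2. The WI and WA comparisons share the WN arrays, so their common direction is not 2 separate observations.

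In the deletion, 0 of the 7 genes passed in dI against dN, where 12.8% of all genes did, and 0 in dA against dN, where 11.8% did, with 1 and 1 at an unadjusted p under 0.05. These shares depend on the fit: the 699 and 641 genes behind them became 71 and 82 with only the strains compared, 906 and 1344 without dN replicate 3, and 356 to 1186 and 333 to 1344 over the fits that left out an array. The largest difference was that of EUG1 in dA, 0.37 above dN (SE 0.12, limma adjusted p = 0.0521). With dN replicate 3 left out, EUG1 was 0.52 above dN (limma adjusted p = 0.00085) and MPD1 was 0.37 above dN (0.0063), against 0.23 (0.19) with all arrays. Replicate 3 was the highest of the 3 dN arrays for both genes. Without it, MPD1 at 0.29 (limma adjusted p = 0.0326) and ERV2 at -0.20 (0.0355) also passed in dI against dN. Against dI, EUG1 was 0.47 higher in dA (limma adjusted p = 0.0656, with 0.991% of all genes called, or 54 genes, which became 473 with only the strains compared, 375 without dN replicate 3 and 17 without dI replicate 3), and the same difference came to 0.00366 without dN replicate 3, which enters this comparison through the shared spread alone, to 0.0498 without dN replicate 2 and to 0.0331 without dI replicate 2. In WA against WI, 0 of the 7 passed, beside 0.496% of all genes, and EUG1 at -0.26 was the single member with an unadjusted p under 0.05.

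With α-amylase the mean of EUG1 was lower in wild type and higher in the deletion than with the empty vector. The rise of 0.37 in the deletion did not pass (limma adjusted p = 0.0521). The difference between the 2 changes was itself tested, which does not test whether their signs are opposite. Relative to the empty vector, the change in the deletion minus the change in wild type was 0.93 for EUG1 (SE 0.16, limma adjusted p = 0.0117), in a test that called 1.34% of all genes and 0.496% in that direction. The 73 genes called became 17 with only the 4 strains concerned in the fit, 28 without WA replicate 2 and 400 without dN replicate 3, and the adjusted p of EUG1 was 0.053 in the first of these fits. Relative to insulin precursor the difference was 0.73 (SE 0.16, limma adjusted p = 0.0356), with 1.6% of all genes called, 0.514% in that direction, and this call held without WN replicate 3, WA replicate 3, dI replicate 2 or any dN array and was lost without any other single array. All 7 genes had a value above 0 relative to the empty vector, and 4 of them had an unadjusted p under 0.05 in the limma test. For MPD1 the value relative to the empty vector was 0.49 (limma adjusted p = 0.14), or 0.63 (0.0046) without dN replicate 3. For insulin precursor relative to the empty vector 0 of the 7 genes passed, beside 0.716% of all genes.

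**Figure D4:**
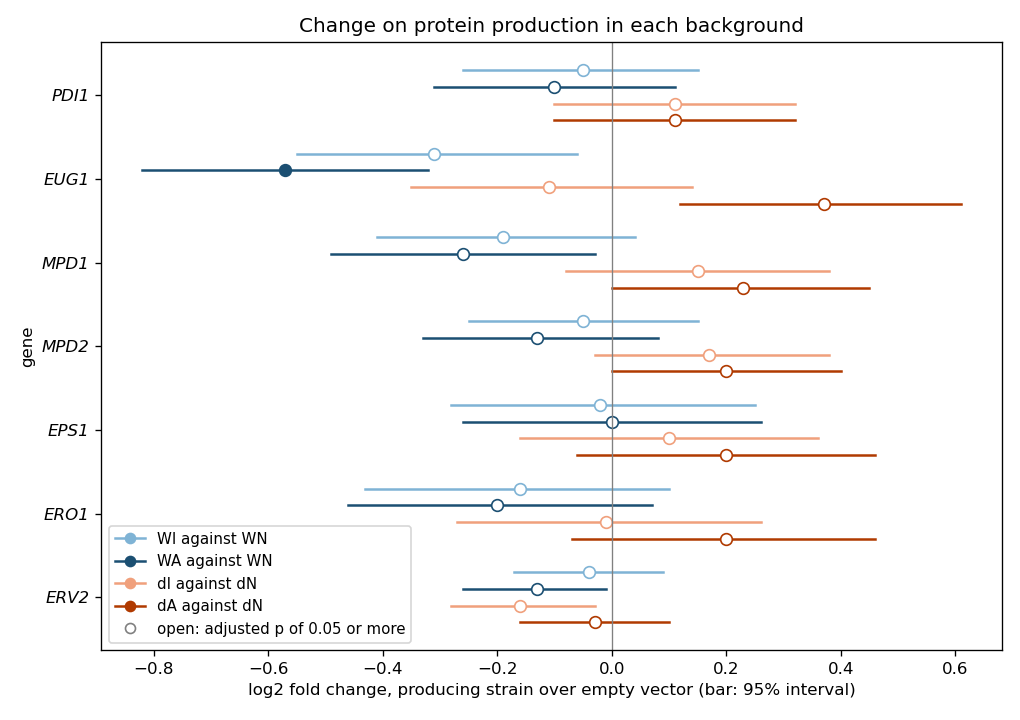
Log2 fold change of each gene with a secreted protein over the empty vector (horizontal axis, with its 95% interval from limma), for insulin precursor and α-amylase in wild type and in the HAC1 deletion, filled where the adjusted p was under 0.05. EUG1 with α-amylase is the only filled point, at -0.57 in wild type, and its value in the deletion lies on the other side of 0, at 0.37.

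The level of the plasmid marker URA3 moved with the same comparisons. The mean URA3 signal was 12.08 in WN, 10.87 in WI and 10.10 in WA, and 12.33 in dN, 10.02 in dI and 8.83 in dA. It was thus lowest in the α-amylase strains of both backgrounds. The mean of EUG1 in these strains was lower in wild type and, without passing, higher in the deletion than with the empty vector. The part of URA3 in the result was not tested.

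By rank, the wild-type strains stood above the deletion strains for all members but EPS1. PDI1, MPD2 and ERO1 were ordered WN, WI, WA with overlapping arrays, and none of these neighbours differed in the limma test. For EUG1 the steps from WN to WI (0.31) and from WI to WA (0.26) were free of overlap but did not pass either (limma adjusted p = 0.69 and 0.607). Each of these steps was free of overlap for 16.4% of all genes. Among the deletion strains, neighbours overlapped for PDI1, EUG1, MPD1, EPS1 and ERO1.

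Across the 18 arrays the 6 members other than EPS1 ran together, with Pearson r between 0.829 and 0.991 for their pairs, and EPS1 had r of -0.589 to -0.455 with them. These are descriptions only: the 18 points fall into 9 wild-type and 9 deletion arrays, and that split alone gives a high r to any pair of genes that fell. The genes most like ERO1 over the 18 arrays were JEM1, an ER J-protein that works with Kar2 (r = 0.995), DAN4 (0.995) and HOP1 (0.994, at background in 9 arrays). Those most like MPD1 were DAN4 (r = 0.995), JEM1 (0.994) and SEC59, the dolichol kinase (0.993). EUG1 was closest to SEC63 (r = 0.994) and SEC66 (0.989), both subunits of the ER translocation machinery, and to ALG6 (0.987), a glucosyltransferase of N-glycan assembly. PDI1 was closest to ADD37 (0.990), GAS4 (0.987, at background in 9 arrays) and YDL124W (0.984), and MPD2 to NUS1 (0.983), LPP1 (0.98) and MGR1 (0.98). The closest genes reached r = 0.939 for ERV2 (VTC3, followed by SWD1 and MRX10) and r = 0.809 for EPS1 (SEG2, followed by TCB1 and HAP1).

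Some genes beside the members on the chromosome were called too. Of 14 nearest tested neighbours (order as in RefSeq assembly R64), 6 fell and 0 rose in dN against WN, 3 fell and 2 rose in dI against WI, and 6 fell and 3 rose in dA against WA. Of all genes, 21.5%, 20.2% and 23.2% were called in these comparisons, and 12%, 10.8% and 13.6% were called lower. Beside PDI1, MGR1, a mitochondrial protease adaptor, fell by 1.47 in dN (limma adjusted p = 6.96e-09), and beside EUG1, FPR2, an ER peptidyl-prolyl isomerase, fell by 1.43 (7.75e-07). Beside MPD1, YOR289W fell by 1.69 (limma adjusted p = 0.00799). The neighbours of ERO1, YML131W at 0.45 (limma adjusted p = 0.0537) and COX14 at 0.12, did not pass in dN.

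Genes around the same chemistry were counted from lists that, like the members, were drawn up with earlier results of these data known. Of 13 ER chaperones and cofactors, 9 fell in dN, 8 in dI and 8 in dA, and 0, 0 and 1 rose. The shares of all genes called lower were 12%, 10.8% and 13.6%. SIL1, the nucleotide exchange factor of Kar2, fell by 3.08 in dN and JEM1 by 2.43, while KAR2 fell by 1.61, 1.51 and 1.22 in the 3 backgrounds. The median of this list was -1.38 in dN, against -0.96 for the 7 members. KAR2 was higher in dA than in dN by 0.28 (limma adjusted p = 0.0309), a comparison in which 0 of the 7 members passed. The means of 6 of the 7 members were also higher there, with EUG1 at 0.37 (limma adjusted p = 0.0521).

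Among the other thiol proteins of the ER and Golgi, 2 of 6 were called in dN, 1 in dI and 1 in dA, a share near that of all genes. Of these, GTT1, a glutathione transferase of the ER, rose in all 3 deletion comparisons, by 0.67, 0.81 and 0.67 (limma adjusted p = 0.00141, 0.000282 and 0.00126), and OST3, an oxidoreductase subunit of the oligosaccharyltransferase, fell by 0.26 in dN and did not pass in dI or dA. Of 8 genes of glutathione synthesis, reduction and transport, 0 passed in dN and dI, and in dA 1 rose, the glutathione synthetase gene GSH2, by 0.21. Ero1 and Erv2 both need flavin adenine dinucleotide. Among 10 genes of flavin supply, 2 rose and 3 fell in dN, 1 rose and 2 fell in dI, and 2 rose and 2 fell in dA. Beside the counts of these lists, 21.5%, 20.2% and 23.2% of all genes were called in dN, dI and dA. RIB1, which opens riboflavin synthesis, fell by 1.08, 0.95 and 1.12.

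RIB4, the lumazine synthase of the same pathway, differed between the plasmids. Its mean signal was 9.26 in WN, 9.68 in WI and 10.22 in WA, and 8.79 in dN, 10.27 in dI and 10.15 in dA. It rose by 0.42 with insulin precursor (limma adjusted p = 0.0179) and by 0.95 with α-amylase in wild type, and by 1.47 with insulin precursor and by 1.36 with α-amylase in the deletion (1.27e-06, 4.25e-09 and 2.06e-08 for the last 3), in comparisons where neither oxidase gene passed.

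The disulfide relay of the mitochondria, which uses the oxidase Erv1, is separate from that of the ER. ERV1 differed by 0.12, 0.08 and -0.11 between deletion and wild type and passed in none. Of the 5 genes of that list, 2 fell in dN, 1 rose and 1 fell in dI, and 1 rose and 1 fell in dA. HOT13, whose product assists the relay, fell in all 3 comparisons (by 0.40, 0.65 and 0.50). The import receptor gene MIA40 rose in dI and dA (by 0.36 and 0.55). CCP1, also of that list, had a mean of 9.11 in WN and 8.64 in dN. Of the fumarate reductases, which can accept electrons from reduced flavin when oxygen is short, FRD1 fell by 0.27, 0.34 and 0.54, and OSM1 was 0.02 higher in dN without passing and rose by 0.34 and 0.32 in dI and dA. IRE1, the sensor upstream of HAC1, differed by 0.03, 0.08 and 0.06, and passed in none. Of the 4 sensor and regulator genes in its list, 1 rose and 1 fell in dN, 1 fell in dI and 1 rose in dA. The counts of these 3 lists stand beside 21.5%, 20.2% and 23.2% of all genes called in dN, dI and dA.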

How the data were processed

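RNA was labelled and hybridised to 1 Affymetrix Yeast Genome 2.0 array per culture. The authors corrected the background by RMA on perfect-match probes, scaled the arrays by qspline, summarised each probe set by median polish and deposited log2 values, which were used unchanged, so a change in total mRNA per cell is not visible. The titles gave each array its strain. Probe sets were named by the platform annotation and paired with RefSeq genes by Entrez gene identifier, which updated 12 symbols to the reference. For 47 genes with several probe sets the brightest was taken, which left 5449 genes.

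The model had 6 strain means on 18 arrays, which leaves 12 residual degrees of freedom. It was fitted in limma 3.58.1 (R 4.3.3) with empirical Bayes variances, and p-values were Benjamini-Hochberg adjusted over all 5449 genes. The fit was tested on simulated data. Pairs of genes were compared within arrays by exact permutation tests with scipy 1.17.1. Replicates are bioreactor cultures, and their number, 3 a strain, limits the precision.

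The members and lists were chosen with earlier results of these data known. By rule the text names all members, HAC1, URA3 and KAR2, up to 4 genes of each list with the smallest adjusted p in the comparison described, the 3 genes most like each member and its neighbours. IRE1, ERV1 and RIB4 and the pairs MPD1 and PDI1, and ERO1 and ERV2, were followed across comparisons after their values were seen.

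Alternative settings were a fit without the strains outside the comparison, a replicate block, all probe sets, no dim genes, quantile normalization, median centring, a robust variance trend, array weights, an adjusted p under 0.01 and leaving out each array. After the data had been seen, the average deletion contrast was added, and so was the fit to the compared strains that also left out dN replicate 3.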

Additional observations from a re-analysis of the deposited data

Results flagged for a closer look

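EUG1, the gene of a non-essential Pdi1 homologue, was the one gene of the 7 whose response to α-amylase differed between the backgrounds by adjusted p. The direction was not particular to EUG1: relative to the empty vector all 7 values were above 0, and 4 had an unadjusted p under 0.05. MPD1 was at 0.49 (limma adjusted p = 0.14), or 0.63 (0.0046) without dN replicate 3. Relative to the empty vector the change in the deletion exceeded that in wild type by 0.93 (SE 0.16, limma adjusted p = 0.0117, and 2.18e-05 to 0.0557 over the alternative settings). Relative to insulin precursor it did so by 0.73 (SE 0.16, limma adjusted p = 0.0356, and 0.000123 to 0.102 over the alternative settings). The 2 values share the WA and dA arrays. No cause was tested.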

How the results depend on the processing

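Of 2499 values of single members under an alternative setting, 2435 kept their direction and their side of the threshold or, in 40 of these, changed sign with no call on either side. Another 32 lost a call, 32 gained one and 0 called values reversed. Many of these values could not change direction, because the setting leaves the log2 change of a gene as it is. These settings are the stricter threshold, the robust variance trend, all probe sets, no dim genes and only the strains compared. Leaving out an array of a strain outside the comparison does so too. For them only the call could change. PDI1, EUG1, MPD1, MPD2 and ERO1 fell in all 3 deletion comparisons under every setting run.

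In dN against WN 5 in place of 6 of the 7 genes were called with only the strains compared (with or without dN replicate 3), with all probe sets, at an adjusted p under 0.01 and when WN replicate 2 or dN replicate 3 was left out, while array weights gave 7 in dI against WI and 6 in dA against WA. In the other comparisons the number moved by more than 1.5 times as follows. With array weights it was 1 in WI against WN, 4 in WA against WN, 2 in dI against dN, 2 in dA against dN and 2 in dA against dI, and among the tests of differing responses 1 for insulin precursor, 2 for α-amylase and 2 for α-amylase relative to insulin precursor. In dA against dN it was 1 without dim genes, 1 with quantile normalization, 1 with the robust variance trend and 2 with only the strains compared without dN replicate 3. With only the strains compared it was 1 in dA against dI and 0 for the differing response to α-amylase, which became 2 when dN replicate 3 was left out as well. That response gave 0 at an adjusted p under 0.01, and relative to insulin precursor it gave 0 at that threshold and 0 with all probe sets tested. Leaving out each array in turn gave 0 to 2 in WA against WN, 0 to 2 in dI against dN, 0 to 2 in dA against dN, 0 to 1 in dA against dI, 1 to 2 for the response to α-amylase and 0 to 1 relative to insulin precursor. The upper counts of 2 arose without dN replicate 3, and the change in KAR2 minus PDI1 in dN ranged from -0.94, without that array, to -0.67. Other causes were not tested. The number of all genes called, against which these counts are read, moved too: with only the strains compared it was 343 in place of 1170 in dN against WN, 1587 in place of 1103 in dI against WI and 1437 in place of 1262 in dA against WA, and leaving out each array gave 724 to 1885, 742 to 1634 and 921 to 1833. Over the same fits it was 97 to 520 in WA against WN (261 with all arrays), 5 to 54 in WI against WN (16) and 48 to 361 for the response to α-amylase relative to insulin precursor (87).

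Replicate numbers were not treated as pairs: deviations from the strain means had a median r of 0.06 between 40 pairs of arrays with the same number, 17 of them over 0.1, and of -0.03 between 80 with different numbers, 24 of them over 0.1. A replicate block on the 17 numbered arrays gave 0 called genes for the differing response to α-amylase, with EUG1 at 0.84 (limma adjusted p = 0.0557). No other probe set of a member was at hand to try, and promoter and protein sequences were not analysed here. Arrays were 3 a strain, all members were well above background, and the differences in EPS1 on deletion lay near the spread between replicates.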
